A study of Homo sapiens with 2 samples.

Results

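Alpha and beta tubulins are the subunits of microtubules, and 10 of their genes were followed here, 4 alpha (TUBA1A, TUBA1B, TUBA1C and TUBA4A) and 6 beta (TUBB, TUBB2A, TUBB2B, TUBB3, TUBB4B and TUBB6). They were taken by gene symbol from the 25343 gene entries of each library, and all 10 were found. The cells were Huh7, an established line from a human hepatocellular carcinoma, kept for 6 days with glucose at 4.5 g/L (called high glucose) or at 0.45 g/L (called low glucose). The line had been maintained in DMEM with bovine serum, and the treated cultures were passaged when dense and reseeded from live cells only. One library was sequenced per medium, so no difference below has an error or a test, and each describes 2 libraries. Values are TPM, RSEM's estimate of transcript abundance per length, scaled to a sum of 1000000 in each library.

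In low glucose the tubulin pool was smaller, and its beta part was slightly different in makeup. The abundant isotypes TUBA1B, TUBA1C, TUBB, TUBB2A and TUBB4B stood at between 0.499 and 0.647 times their high glucose level, and TUBB6 at 0.767 times. The 3 isotypes TUBA1A, TUBB2B and TUBB3, all at 54.4 TPM or less and best known from neurons, instead stood at 2.03, 1.15 and 1.45 times their high glucose level. Single levels of TUBA1A and TUBB2B are uncertain, because their transcripts have identical stretches in common with TUBA1B and TUBB2A. Summed, TUBB2A and TUBB2B stood at 0.660 times their high glucose level, and TUBA1A, TUBA1B and TUBA1C at 0.576 times. TUBA4A, the remaining scarce isotype and one also found in brain, stood at 0.802 times. Summed alpha and summed beta mRNA were lower by nearly the same factor, so the ratio of alpha to beta stood at 0.945 under high and 0.943 in low glucose.

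As background, one alpha and one beta tubulin form the dimer from which microtubules are built, and several genes encode nearly the same protein for each subunit. These isotypes differ mainly in the acidic tail at the carboxyl end, where enzymes add and remove tyrosine, glutamate and glycine chains. Microtubules form the mitotic spindle and, in hepatocytes, the tracks along which secretory vesicles move. Cells also adjust tubulin mRNA to the amount of free dimer: when free tubulin rises, the factor TTC5 recognises the first residues of a nascent tubulin chain on the ribosome, and the mRNA is degraded through SCAPER and the CCR4-NOT complex.

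The first 24 coding bases are shown because they encode the residues that this control reads, with the first 4 codons in capitals. They were read 5′ to 3′ from the principal transcripts of GENCODE release 29.
TUBA1A: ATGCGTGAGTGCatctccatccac
TUBA1B: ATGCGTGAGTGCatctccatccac
TUBA1C: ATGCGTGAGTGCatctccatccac
TUBA4A: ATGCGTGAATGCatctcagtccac
TUBB: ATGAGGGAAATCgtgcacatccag
TUBB2A: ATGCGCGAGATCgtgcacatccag
TUBB2B: ATGCGTGAGATCgtgcacatccag
TUBB3: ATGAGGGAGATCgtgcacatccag
TUBB4B: ATGAGGGAAATCgtgcacttgcag
TUBB6: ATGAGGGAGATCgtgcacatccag
The capitals were the same in TUBA1A, TUBA1B and TUBA1C, and 11 of these 12 bases were shared between each of them and TUBA4A. Among the 15 beta pairs, between 9 and 12 bases were shared. None of these differences changes the encoded residues, which are Met-Arg-Glu-Cys in every alpha tubulin shown and Met-Arg-Glu-Ile in every beta tubulin shown. The part of the control by TTC5 in the tubulin levels was not tested.

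The last 60 coding bases of the beta tubulins are shown because they encode the tail by which isotypes are told apart, with the stop codon in capitals.
TUBB: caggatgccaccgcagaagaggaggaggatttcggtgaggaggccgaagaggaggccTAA
TUBB2A: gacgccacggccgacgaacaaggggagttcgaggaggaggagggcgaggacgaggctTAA
TUBB2B: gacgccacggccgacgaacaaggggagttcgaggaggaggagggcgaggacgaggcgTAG
TUBB3: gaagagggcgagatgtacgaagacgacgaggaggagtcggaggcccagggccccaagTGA
TUBB4B: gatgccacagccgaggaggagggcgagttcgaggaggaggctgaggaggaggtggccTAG
TUBB6: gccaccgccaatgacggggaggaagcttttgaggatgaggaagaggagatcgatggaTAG
TUBB2A and TUBB2B were identical at 96.7% of these bases, and the other beta pairs shared between 36.7% and 76.7%.

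How alike the transcripts are bears on the levels, since reads that match several genes must be divided between them. Over the whole coding sequence, identity ran from 84.4% (TUBA1A and TUBA4A) to 97.2% (TUBA1A and TUBA1B) among the 6 alpha pairs. Among the beta pairs it ran from 80.9% (TUBB and TUBB6) to 98.1% (TUBB2A and TUBB2B). Cut into windows of 100 bases, the TUBB2A transcript shared 54.4% of its windows letter for letter with another of the 10 tubulins. TUBB2B shared 42.4%, TUBA1B 32.1%, TUBA1A 18.6% and TUBA1C 11.5%. TUBB, TUBA4A and TUBB6 shared none at that length. With windows of 50 bases the shares reached 60.3% for TUBB2A and 56.6% for TUBA1B, while TUBB and TUBA4A still shared none with another of the 10. Of the TUBB3 windows of 100 bases, 5.15% were shared with another of the 10, but 89.0% also occurred in AC092143.1, a GENCODE gene model that overlaps both TUBB3 and MC1R on the same strand. Counting windows of 50 bases shared with any GENCODE gene, TUBB shared 18.2% (16.1% with TUBBP1), TUBB4B 9.89% and TUBA1B 62.7%. TUBBP1 has no entry of its own in the 2 libraries. Levels of TUBB2A, TUBB2B and the TUBA1 genes are therefore uncertain taken one by one, as is that of TUBB3 because of AC092143.1. Sums of the TUBA1 genes and of TUBB2A with TUBB2B are given beside them. These sums do not cover sharing with genes outside the 10.

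**Figure D1:**
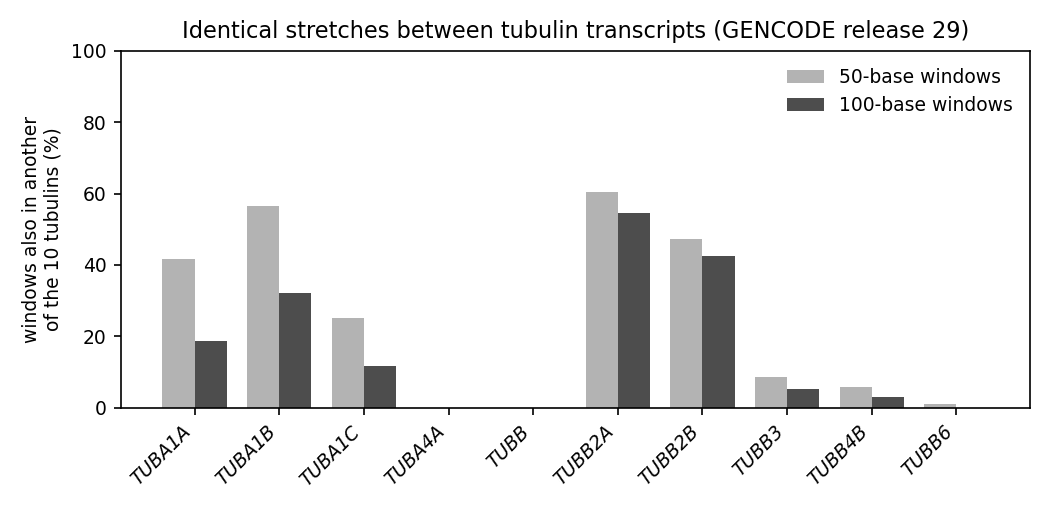
Share of each tubulin transcript's windows (y axis, percent) that occur letter for letter in another of the 10 tubulins, for windows of 50 bases (light bars) and 100 bases (dark bars). TUBB2A is highest at 54.4% of its 100-base windows, and TUBB and TUBA4A have no bar at either length.

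Among the alpha tubulins, TUBA1B and TUBA1C made up nearly all of the mRNA in both media. TUBA1B (chromosome 12, 49521567 to 49525304 on hg19), the widely expressed alpha isotype of dividing cells, stood at 2009.8 TPM under high and 1102 TPM under low glucose. As log2(TPM + 1), low minus high, which is how all differences below are expressed, this was -0.87. TUBA1C (chromosome 12, 49658865 to 49667113), another widely expressed isotype, stood at 719.8 and 466 TPM, a difference of -0.63. Both were lower in low glucose, TUBA1B by the larger factor.

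The remaining alpha isotypes were scarce. TUBA4A (chromosome 2, 220114433 to 220119330), found in brain, muscle and platelets, stood at 5.05 TPM under high and 4.05 TPM under low glucose, a difference of -0.26. Its hg19 interval overlaps those of STK16 (14.47 and 14.54 TPM) and TUBA4B (0.06 and 0.08 TPM). TUBA1A (chromosome 12, 49578578 to 49583107), the main alpha isotype of developing neurons, stood at 2.95 and 5.99 TPM. Its level in low glucose was 2.03 times that in high glucose, but on the log2(TPM + 1) scale, which shrinks differences of low genes, this was 0.82, and 0.47 with 5 added in place of 1. TUBA1A thus ran opposite to TUBA1B, whose transcript holds many of the same stretches. The 3 TUBA1 genes summed to 2733 TPM under high and 1574 TPM under low glucose, a log2 ratio of -0.80.

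Among the beta tubulins, TUBB and TUBB4B led. TUBB (chromosome 6, 30688157 to 30693195), the class I isotype present in most tissues, stood at 1132 TPM under high and 653 TPM under low glucose, a difference of -0.79. TUBB4B (chromosome 9, 140135711 to 140138159), the widely expressed class IV isotype that is also a main component of cilia, stood at 1180.4 and 589 TPM. Its difference of -1.003 was the largest of the 10 in size. Its hg19 interval overlaps that of FAM166A (0.31 and 0.09 TPM). TUBB4B was above TUBB by a ratio of 1.04 in high glucose and below it, at 0.901, in low glucose. Ratios this close to 1 have no replicate spread to be read against, so the order of these neighbours is not established in either medium.

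TUBB6 and TUBB2A followed at lower levels. TUBB6 (chromosome 18, 12308257 to 12326568), the class V isotype of many non-neuronal cells, stood at 295 TPM under high and 226.5 TPM under low glucose, a difference of -0.38. This was the smallest negative difference among the 6 isotypes of at least 100 TPM. TUBB2A (chromosome 6, 3153902 to 3157783), a class II isotype, stood at 225 and 126 TPM, a difference of -0.84.

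The other class II isotype and the class III isotype did not follow. TUBB2B (chromosome 6, 3224495 to 3227968), prominent in the developing brain, stood at 47.3 TPM under high and 54.4 TPM under low glucose, a difference of 0.20. The ratio of TUBB2A to TUBB2B was 4.77 under high and 2.31 in low glucose. Summed, which removes how reads were divided between them, they stood at 273 and 179.9 TPM, a log2 ratio of -0.60. TUBB3 (chromosome 16, 89988417 to 90002505), the neuronal isotype that many carcinomas also express, stood at 17.2 and 25.01 TPM, a difference of 0.51. Its interval is shared with no other entry of the table, although most of its transcript also occurs in AC092143.1.

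**Figure D2:**
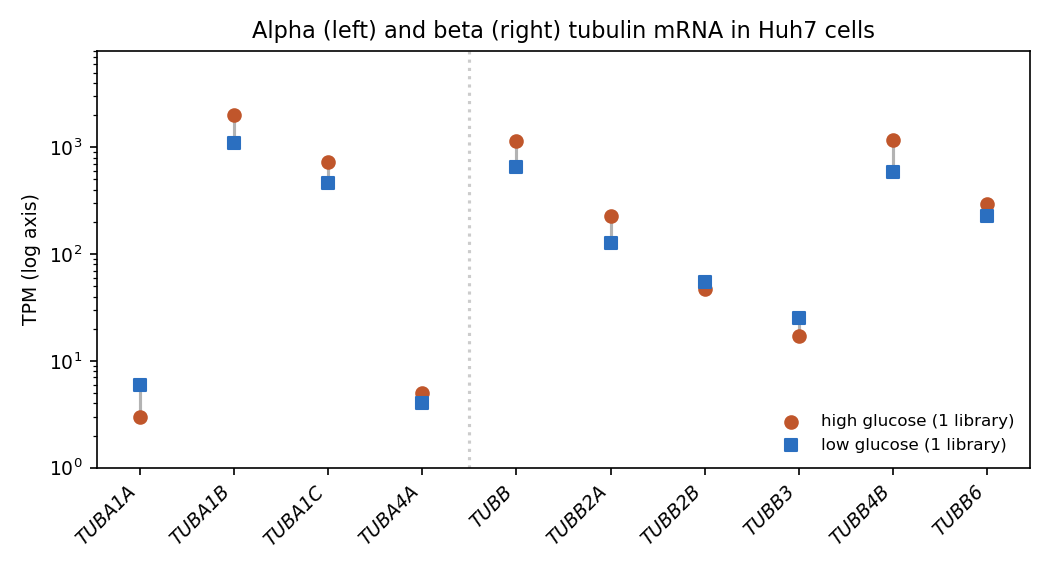
TPM of each tubulin (y axis, log scale) in the high glucose library (circles) and the low glucose library (squares), alpha isotypes left of the dotted line and beta isotypes right. The low glucose square lies below the circle for 7 isotypes and above it for TUBA1A, TUBB2B and TUBB3.

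Because TPM is per transcript length, isotypes can be ranked within a library. In both libraries TUBA1B was highest, and TUBA1C, TUBB6, TUBB2A, TUBB2B and TUBB3 followed in this order below TUBB and TUBB4B. TUBB and TUBB4B were close to each other in both media, and TUBA4A and TUBA1A lay at the low end. The order within either pair was not the same in the 2 libraries, and without replicates it is not established in either medium. Nor is that of other near neighbours, such as TUBB6 over TUBB2A (ratio of 1.31 in high glucose) or TUBB4B over TUBA1C (1.26 in low glucose). From TUBA1B to the scarcest isotype, levels spanned 2009.8 to 2.95 TPM in high glucose and 1102 to 4.05 TPM under low glucose.

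The summed levels show how much of the transcriptome these genes took. The 4 alpha tubulins summed to 2738 TPM under high and 1578 TPM under low glucose, a log2 ratio of -0.80. The 6 beta tubulins summed to 2898 and 1673 TPM, a log2 ratio of -0.79. Together they held 0.564% of all TPM under high and 0.325% in low glucose. In RNA from whole cultures, fewer cells of a type and less RNA per cell cannot be told apart.

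Isotype makeup moved by a few percentage points. TUBA1B made 73.4% of alpha tubulin TPM under high and 69.8% in low glucose, and TUBA1C 26.3% and 29.5%. TUBA4A made 0.184% and 0.257%, and TUBA1A 0.108% and 0.380%. The alpha pool was thus nearly all TUBA1B and TUBA1C in both media. The joint share of TUBA1A, TUBA1B and TUBA1C moved by -0.072 percentage points. Moves between these 3, whose transcripts have identical stretches in common, are as uncertain as their single levels.

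In the beta pool TUBB4B made 40.7% under high and 35.2% in low glucose, the largest move of any isotype at -5.55 percentage points. TUBB made 39.1% and 39.0%. TUBB6 made 10.2% and 13.5%, TUBB2A 7.78% and 7.50%, TUBB2B 1.63% and 3.25%, and TUBB3 0.594% and 1.49%. What TUBB4B lost as a share was therefore spread over TUBB6, TUBB2B and TUBB3, although TUBB6 itself was lower in TPM. Shares of isotypes that share reads are as uncertain as their levels.

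**Figure D3:**
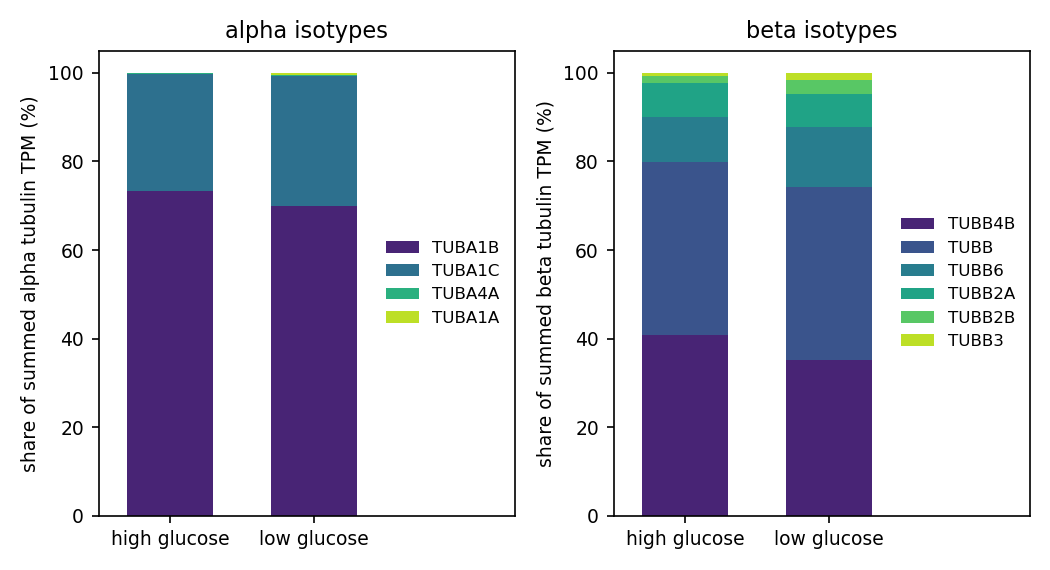
Share of each isotype in the summed TPM of the 4 alpha tubulins (left) and the 6 beta tubulins (right), y axis in percent, 1 library per bar. TUBA1B takes 73.4% of the alpha bar under high and 69.8% in low glucose, and TUBB4B takes 40.7% and 35.2% of the beta bars.

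Set against the 13745 genes with a mean of at least 1 TPM, the tubulins lay towards the lower side. The 2-fold rule asks for a difference of 1 or more in either direction, and 1 of the 10, TUBB4B, met it on the lower side, where 1.10% of all genes did. TUBB4B lies at the edge of that rule: its difference came to -0.97 when the libraries were scaled to the total without the 50 most abundant genes. None met it on the higher side, where 3.65% of all genes did. At a 1.5-fold rule, 5 of 10 were lower (TUBA1B, TUBA1C, TUBB, TUBB2A and TUBB4B), where 6.07% of all genes were, and 1, TUBA1A, was higher, where 13.0% of all genes were. The median difference of the 10 was -0.50, and that of all genes 0.05, with quartiles of -0.23 and 0.35.

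Genes with a mean of at least 100 TPM were in general somewhat lower in low glucose, and 6 of the 10 tubulins reached that level. The 1748 genes with a mean of at least 100 TPM had a median difference of -0.14 and quartiles of -0.39 and 0.17, with 1103 of them below 0. The 6 tubulins of that level (TUBA1B, TUBA1C, TUBB, TUBB2A, TUBB4B and TUBB6) ran from -1.003 to -0.38 with a median of -0.82, and all lay below 0. Of the 1748 genes, 10.5% were at least 1.5-fold lower, and 5 of these 6 tubulins were. With the median of each of 20 groups of like expression subtracted, TUBB4B stood at -0.86, TUBA1B at -0.73 and TUBA1A at 0.64.

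**Figure D4:**
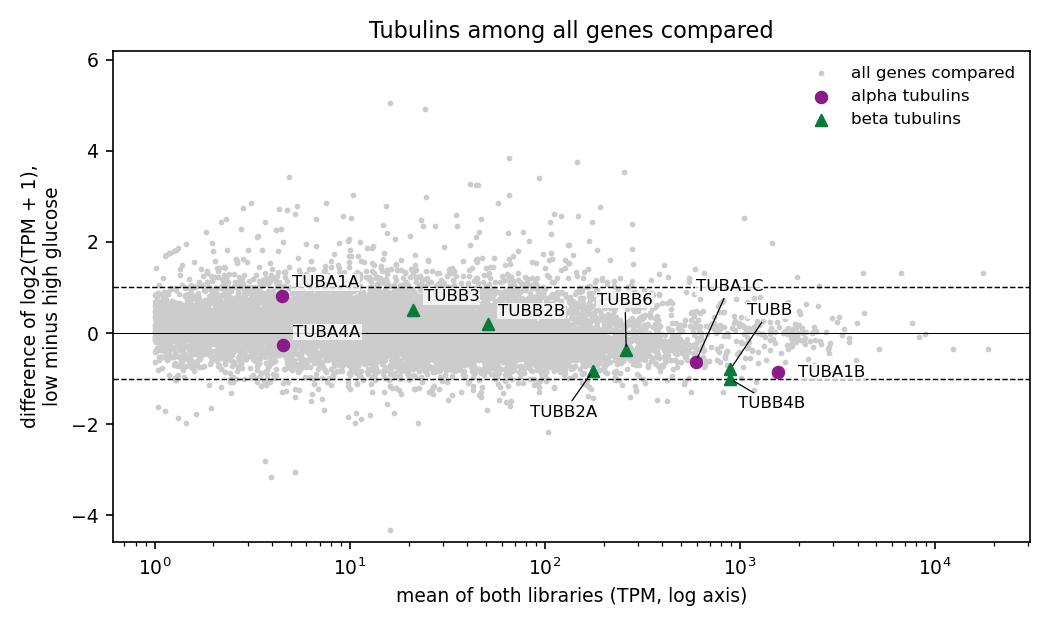
Change in log2(TPM + 1) from high to low glucose (y axis), against the mean TPM of both libraries (x axis, log scale) for the 13745 genes compared (grey), alpha tubulins (circles) and beta tubulins (triangles), with dashed lines at the 2-fold rule. The 6 tubulins of at least 100 TPM lie between -1.003 and -0.38, and TUBA1A, TUBB3 and TUBB2B lie above 0.

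The promoters are shown for 5 isotypes with a single annotated start, 3 that were lower in low glucose (TUBB4B, TUBA1B and TUBB2A) and 2 that were not (TUBB2B and TUBA1A). The 5 were picked by hand, and TUBA4A, also lower and with a single start, is not shown. The 250 bases before the start of transcription are given 5′ to 3′ on the gene's strand from RefSeq (GRCh38.p14). The windows are chr9:137241037-137241286 (plus strand), chr12:49131396-49131645, chr6:3157545-3157794, chr6:3227654-3227903 and chr12:49189081-49189330 (minus strand). Capitals mark matches, on either strand, to CCAAT (the box known to be bound by NF-Y), GGGCGG (the GC box of SP1 factors), TATAA (the TATA box) and TGACGTCA (the cyclic AMP response element), with overlapping matches of 1 motif counted separately.
TUBB4B: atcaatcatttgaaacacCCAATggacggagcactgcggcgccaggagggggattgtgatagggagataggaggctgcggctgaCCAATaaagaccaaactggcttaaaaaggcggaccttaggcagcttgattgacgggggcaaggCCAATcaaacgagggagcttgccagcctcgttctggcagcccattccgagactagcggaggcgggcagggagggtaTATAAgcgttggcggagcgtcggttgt
TUBA1B: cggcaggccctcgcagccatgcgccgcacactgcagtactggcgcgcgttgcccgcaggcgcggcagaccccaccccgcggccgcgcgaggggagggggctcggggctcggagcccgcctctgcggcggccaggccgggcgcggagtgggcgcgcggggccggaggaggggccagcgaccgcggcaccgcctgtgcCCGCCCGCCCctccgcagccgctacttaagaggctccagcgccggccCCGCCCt
TUBB2A: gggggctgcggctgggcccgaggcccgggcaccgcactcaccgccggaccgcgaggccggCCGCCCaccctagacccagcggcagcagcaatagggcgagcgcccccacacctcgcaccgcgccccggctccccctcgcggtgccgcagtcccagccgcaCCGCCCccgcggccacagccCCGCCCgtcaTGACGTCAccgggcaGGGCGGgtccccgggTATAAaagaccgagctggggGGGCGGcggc
TUBB2B: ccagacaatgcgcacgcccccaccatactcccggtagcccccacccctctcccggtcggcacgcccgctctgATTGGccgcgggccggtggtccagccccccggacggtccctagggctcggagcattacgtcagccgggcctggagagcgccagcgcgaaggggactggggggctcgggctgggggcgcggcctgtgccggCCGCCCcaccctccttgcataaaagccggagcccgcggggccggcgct
TUBA1A: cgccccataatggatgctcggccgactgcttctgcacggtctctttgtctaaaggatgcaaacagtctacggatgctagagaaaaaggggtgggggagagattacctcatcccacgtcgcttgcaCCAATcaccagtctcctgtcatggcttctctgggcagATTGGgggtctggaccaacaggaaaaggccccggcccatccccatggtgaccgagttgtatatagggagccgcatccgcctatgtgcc
The TUBB4B window held 3 matches to CCAAT and 1 to TATAA. That of TUBA1B held 3 to GGGCGG, and that of TUBB2A 5 to GGGCGG, 1 to TATAA and 1 to TGACGTCA. TUBB2B held 1 to CCAAT and 1 to GGGCGG, and TUBA1A 2 to CCAAT. TUBB2A and TUBB2B, nearly alike in their coding bases, differed in these letters. The part of such matches in the tubulin levels was not tested. Over all 15 annotated starts of the 10 tubulins, 9 held CCAAT, 9 GGGCGG, 5 TATAA and 1 TGACGTCA. Of 35116 such windows of all genes, 32.0% held CCAAT, 42.6% GGGCGG, 18.9% TATAA and 1.65% TGACGTCA. A match is only a run of letters and no evidence of binding.

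Genes that make, modify and use tubulin were read from 12 lists by role. Of their 127 genes at the level compared, 3 were at least 2-fold higher and 2 at least 2-fold lower in low glucose, beside 3.65% and 1.10% of all genes. Over all 13745 genes compared, 6227 lay below 0 and the median was 0.05. Of the 1748 genes with a mean of at least 100 TPM, a level that every CCT gene reached, 1103 lay below 0, with a median of -0.14. All 8 subunits of the CCT chaperonin, which folds tubulin and actin, lay below 0 (median -0.36), with CCT3 at 581 and 427 TPM, CCT7 at 549 and 433 TPM and TCP1 nearly level at -0.03. TCP1 was named after its value was seen. Of 6 prefoldin genes, whose product hands unfolded tubulin to CCT, 5 lay below 0 (median -0.39), with PFDN5 at 427 and 326 TPM and PFDN2 at 142 and 133 TPM. The sixth, PFDN4, also named after its value was seen, stood at 64.9 and 69.8 TPM. The 7 tubulin folding cofactors, which join alpha to beta, had a median of 0.04, with TBCA at 303 and 342 TPM and TBCB at 83.6 and 80.4 TPM. No gene of these 3 lists met the 2-fold rule.

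Of the 4 genes of tubulin mRNA control, CNOT11, the CCR4-NOT subunit through which SCAPER acts, stood at 235 TPM under high and 103 TPM under low glucose, a difference of -1.18. The other 3 were nearly level, with TTC5 at 11.0 and 10.3 TPM, SCAPER at 13.1 and 13.8 TPM and CNOT1 at 74.0 and 72.7 TPM. TTC5 and SCAPER were named after their values were seen. The 17 genes listed for the modification of tubulin had a median of 0.14 and none past 2-fold. HDAC6, which removes acetyl groups from alpha tubulin, stood at 88.0 and 124 TPM, and TTLL12, a member of the tubulin ligase family, at 71.8 and 57.7 TPM.

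Tubulins outside the alpha and beta classes were mixed. TUBE1, epsilon tubulin of the centriole, stood at 12.3 TPM under high and 48.4 TPM under low glucose, a difference of 1.89 that was opposite to the abundant isotypes. Its interval overlaps that of FAM229B (4.35 and 5.74 TPM). TUBD1, delta tubulin, also of the centriole, stood at 24.5 and 16.4 TPM. The 11 genes of the gamma tubulin complex, which starts new microtubules, had a median of -0.16 and none past 2-fold. TUBG1 stood at 239 and 164 TPM, MZT2B at 205 and 183 TPM and, named after its values were seen, TUBG2 at 31.0 and 46.4 TPM.

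Genes that act on finished microtubules varied by role. The 17 spindle motors and assembly factors had a median of -0.36 with 16 below 0 (6227 of the 13745 genes compared were), among them TPX2 (301 and 191 TPM) and TACC3 (232 and 145 TPM). The part of this shift in the tubulin values was not tested. STMN1, which sequesters tubulin dimers, stood at 503 and 321 TPM, a difference of -0.64, and the depolymerising kinesin KIF2C at 69.8 and 49.1 TPM. The 10 genes of that list had a median of -0.16. The 14 microtubule-associated proteins had a median of 0.01, with MAP4 at 124 TPM in both media and the plus-end protein MAPRE1 at 220.4 and 184 TPM. MAP1B, a neuronal microtubule-binding protein, stood at 0.82 and 4.44 TPM, a difference of 1.58 from a low level.

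Transport motors had a median of -0.01 over 18 genes. KIF5C, a kinesin heavy chain best known from neurons, stood at 6.43 and 15.9 TPM, a difference of 1.18. The dynein light chain DYNLL1 stood at 591 and 305 TPM (-0.95) and DYNLT1 at 181 and 159 TPM. Of 9 genes of other filaments, LMNB1, a lamin of the nuclear envelope, stood at 99.9 and 46.4 TPM (-1.09). ACTB, beta actin, stood at 3853 and 3344 TPM and the keratin KRT8 at 3299 and 2438 TPM. The median of these 9 was -0.10, so the summed tubulins at -0.80 and -0.79 lay lower than most other cytoskeletal genes of the list.

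**Figure D5:**
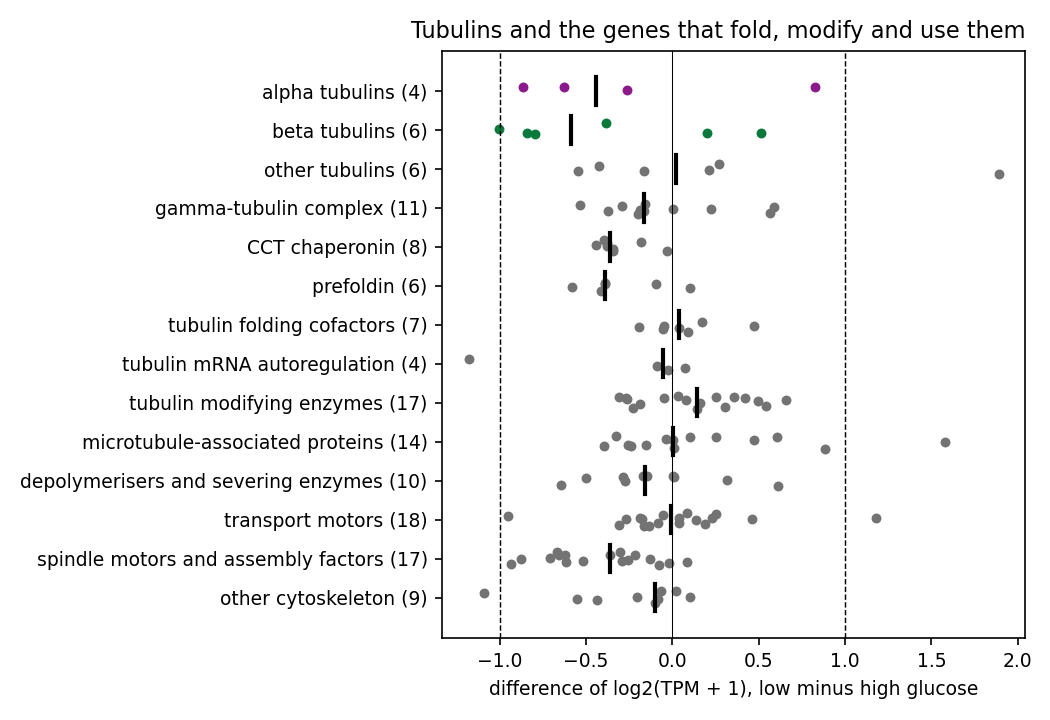
Change in log2(TPM + 1) from high to low glucose (x axis), for each gene compared in the alpha and beta tubulins and in 12 lists by role (y axis, number of genes in brackets), with the median as a black bar and dashed lines at the 2-fold rule. All 8 CCT genes and 16 of 17 spindle genes lie below 0, and TUBE1 stands at 1.89.

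The libraries had the markers of their labelled cell type. All 7 hepatocyte and hepatoma markers were at the level compared, summing to 38179 TPM under high and 31248 TPM under low glucose. Because TUBB3, TUBB2B and TUBA1A are best known from neurons, 11 neuron markers were read beside them, and 4 of these reached a mean of 1 TPM. The 11 summed to 28.7 and 41.2 TPM, of which SNAP25 made 17.8 and 27.2 TPM. The 4 at a mean of 1 TPM or more all lay above 0, with a median of 0.33. Of all 13745 genes compared, 7498 lay above 0, with a median of 0.05. RBFOX3, NEFM and STMN2 were listed at 0 in both libraries, and ELAVL4, NEFL, DCX and INA at 0.06 TPM or less. Markers of fibroblasts summed to 30.1 and 40.4 TPM. The 4 of these 6 at a mean of 1 TPM or more all lay above 0, where 7498 of the 13745 genes compared did. COL1A1, at 1.06 and 4.03 TPM (1.29), met the 2-fold rule on the higher side, as did 3.65% of all genes, while THY1 was listed at 0. Those of leukocytes (2 of 4) summed to 24.4 and 42.1 TPM, of which CD68 made 20.4 and 39.3 TPM (0.91). CD14 stood at 3.04 and 2.26 TPM and PTPRC at 0.83 and 0.50 TPM. Those of endothelium (1 of 3) summed to 2.14 and 2.19 TPM. Their part in the tubulin values was not tested.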

How the data were processed

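RNA of Huh7 cells was sequenced as 1 library per medium. The deposited values are TPM per gene, per the file headers, with 2 decimals and a sum of 1000000 per library. The submitters' processing notes name cutadapt, RSEM 1.2.21 and the hg19 build, so the authors' TPM come from a tool that divides reads matching several genes between them. Aligner, annotation, read length and strand setting are, however, not given in the sources used here. Reads per library are unknown, so no counting interval is given.

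Genes with a mean of at least 1 TPM were set side by side on the log2(TPM + 1) scale, low minus high, with a 2-fold rule and no test, in Python 3.11.15 (numpy 2.4.6, pandas 2.3.3). The procedure was also run on simulated data with seeded changes and noise of a chosen size. Reads were not divided between genes there, so the simulation does not bear on how reliable the tubulin differences are. Alternatives were 4 scalings, pseudocounts of 0.1 and 5, other filters (none, 10 and 100 TPM) and rules of 1.5-fold and 3-fold. Subtraction of level-group medians and the filter of 100 TPM were chosen after seeing the data. All 10 tubulins are named. Each list by role names up to 4 genes past the 2-fold rule and its 2 most abundant genes, with exceptions said in place. Coding ends of the alpha tubulins are not reported here. The tubulins and lists were chosen with earlier results of these data known. No genes of most similar pattern are named, because 2 libraries give no pattern to rank.

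Coding bases and windows come from GENCODE release 29, principal transcripts, aligned end to end in pairs with Biopython 1.88. Promoters come from RefSeq, and all 10 tubulins matched by symbol. The hg19 coordinates are the authors' and the promoter coordinates are GRCh38.p14.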

Additional observations from a re-analysis of the deposited data

How the results depend on the processing

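No paired analysis was possible because each medium has 1 library, and leaving out a library leaves no comparison. None of the 10 tubulins changed direction in 70 recomputed differences (4 scalings, pseudocounts of 0.1 and 5, and subtraction of level-group medians). A pseudocount cannot change a direction, and each scaling moves all genes by nearly the same amount. The count therefore says nothing about the spread between cultures. TUBB4B missed the 2-fold rule with the total without the 50 most abundant genes (-0.97), a pseudocount of 5 (-0.998) and level-group medians subtracted (-0.86). The number of tubulins at least 2-fold lower was then 0 in place of 1. It was also 0 at a 3-fold rule and 5 at a 1.5-fold rule, where 1 was higher. The log2 ratio of summed alpha tubulins ran from -0.89 to -0.77 and that of beta from -0.88 to -0.76 over the alternatives.

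With TUBA1A, TUBA1B and TUBA1C summed, their joint share moved by -0.072 percentage points. With TUBB2A and TUBB2B summed, it moved by 1.34, in place of -0.28 for TUBB2A alone. Over all beta entries of the table, the share of TUBB moved by -0.57 in place of -0.03. Pathway genes at least 2-fold higher numbered 3, and 1 with a pseudocount of 5 or a 3-fold rule and 8 at a 1.5-fold rule. MAP1B (0.70) and KIF5C (0.87) were those missing with a pseudocount of 5. Those lower numbered 2, and 4 with median-of-ratios or trimmed-mean scaling, 11 at a 1.5-fold rule, 0 at a 3-fold rule and 1 with level-group medians subtracted, where LMNB1 stood at -0.98. The scalings placed the median of all genes between -0.03 and 0.08. Causes were not tested.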

Other observations

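The table also lists 7 alpha and 4 beta entries outside the 10 tubulins described, including pseudogenes. The alpha entries summed to 8.87 TPM under high and 8.44 TPM under low glucose, most of it TUBA3FP (5.41 and 5.15 TPM). The beta entries summed to 50.8 and 53.7 TPM, led by TUBBP5 (31.9 and 31.4 TPM) and TUBB8 (17.7 and 20.6 TPM). These sums were nearly level between the media, while the 10 tubulins summed to 5636 and 3251 TPM. TUBB1, the isotype of platelets, had 0.05 and 0.79 TPM, under the mean of 1 TPM needed.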
